A study of Arabidopsis thaliana with 18 samples.

Results

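The comparison described here asked, for each transcript of Arabidopsis thaliana Col-0, whether its level in polysomal RNA relative to its level in total RNA differed between seedlings and dry seeds. For each row of the expression table the polysomal minus total difference was taken at each stage on the log2 scale. The dry seed difference was then subtracted from the seedling difference, and the result is called the shift. A positive shift means that the transcript stood higher in polysomal RNA, against total RNA, in seedlings than in dry seeds. The shift was taken from 12 of the 18 arrays of the series. These were 3 each of total and polysomal RNA from freshly harvested dry seeds and from seedlings imbibed for 72 h. The monosomal arrays entered no shift, but the fit used them to estimate the spread. All groups were of the Columbia-0 ecotype with no mutation or chemical treatment in the labels, and each replicate was a pool of 8 plants. Claims were restricted to the 4737 of 27827 rows whose 4 group means were all 5 or more, a floor that keeps both stages away from background. The 3 rows just inside the floor had lowest group means of 5.0001 to 5.0016, and the 3 just outside had 4.9983 to 4.9999.

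An mRNA that several ribosomes translate at once sediments as a polysome, and polysomal RNA is purified on that property. Dry seeds hold stored mRNAs made during maturation and show little protein synthesis, while imbibed seedlings rebuild polysomes as they begin growth. The polysomal to total difference is widely used as a relative measure of ribosome loading. Organelle mRNAs are translated by the organelle's own ribosomes. Because the deposited values had been normalized between arrays, they place a transcript within its fraction and do not measure its amount. In whole seeds or seedlings fewer cells of a type and less RNA per cell cannot be told apart.

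Array medians lay between 3.05 and 3.65, values ran from 0.07 to 12.62, and replicate arrays of one group correlated across rows, which are not independent replicates, at 0.970 to 0.990. The number of arrays limits the precision. The labelled stages matched their markers in level. The 6 dry seed markers, among them the storage protein genes CRA1 and CRU3, had group means of 10.37 to 11.80 in dry seeds and 2.50 to 5.40 in seedlings. In the other direction 5 of the 6 green tissue markers had means of 10.18 to 11.98 in seedlings, and the sixth, LHCA1, had 3.15 to 3.90. None of the dry seed markers passed the floor. Their summed level on the seedling polysomal arrays was 6.14, 6.05 and 9.36 for replicates 1, 2 and 3, so replicate 3 stood apart. Counts of calls without it follow the main counts over all rows and for the lists and families whose counts changed without it. Nothing in the labels says that a number pairs samples across fractions.

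Across the 4737 rows 167 had a higher polysomal to total difference in seedlings than in dry seeds (3.53% of those tested) and 210 a lower one (4.43%), by limma with p adjusted over all 27827 rows and a threshold of 0.05. The other 4360 did not pass the test. Without seedling polysomal replicate 3 101 were higher and 138 lower. Over all rows without the floor the test called 1124 higher (4.04%) and 1380 lower (4.96%). The median shift of the 4737 rows was 0.03, with quartiles of -0.33 and 0.34. The smallest called shift was 0.71 in size among the higher rows and 0.79 among the lower rows. With a median SE of 0.28 over all 4737 rows, small shifts cannot pass the test, so these minima reflect the threshold. A log2 shift of 1 in size was reached by 93 of the higher and 161 of the lower rows.

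Both stage differences are given for the called rows. For the 167 higher rows the dry seed difference was near 0 (median -0.08, quartiles -0.30 and 0.09) and the seedling difference was positive (median 0.96, quartiles 0.71 and 1.15). For the 210 lower rows the dry seed difference was mostly positive (median 0.30, quartiles 0.00 and 0.62) and the seedling difference negative (median -0.88, quartiles -1.33 and -0.58). These values chose the rows and are given as a description. In 42 of the higher and 73 of the lower rows the polysomal and total arrays did not overlap at either stage and lay in opposite directions. Called or not, 210 of the 4737 rows had this arrangement (4.43%). Within the stages taken singly, polysomal RNA was higher than total RNA for 243 rows (5.13%) and lower for 65 (1.37%) in dry seeds. In seedlings it was higher for 904 (19.1%) and lower for 433 (9.14%).

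The balance of directions depended on scaling. With arrays centred on their medians the counts were 218 higher and 166 lower, and with arrays centred on their 75th percentiles, which raised the median shift of all rows by 0.15, they were 360 higher and 148 lower. No called row reversed its sign in either. Gene calls given with their test held in all of 20 refits, 8 with other scalings or models and 12 without 1 array, unless stated. With the 12 polysomal and total arrays alone, so that monosomal arrays did not enter the spread, 217 were higher and 257 lower. Leaving out 1 array lowered the counts. Without dry polysomal replicates 1 or 3, 81 or 91 were higher and 134 were lower in both cases. Without seedling polysomal replicates 1 or 3, 105 or 101 were higher and 159 or 138 lower, without seedling total replicates 1 or 2, 93 or 92 were higher and 135 or 141 lower, and without dry total replicate 3, 111 were higher and 204 lower.

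**Figure D1:**
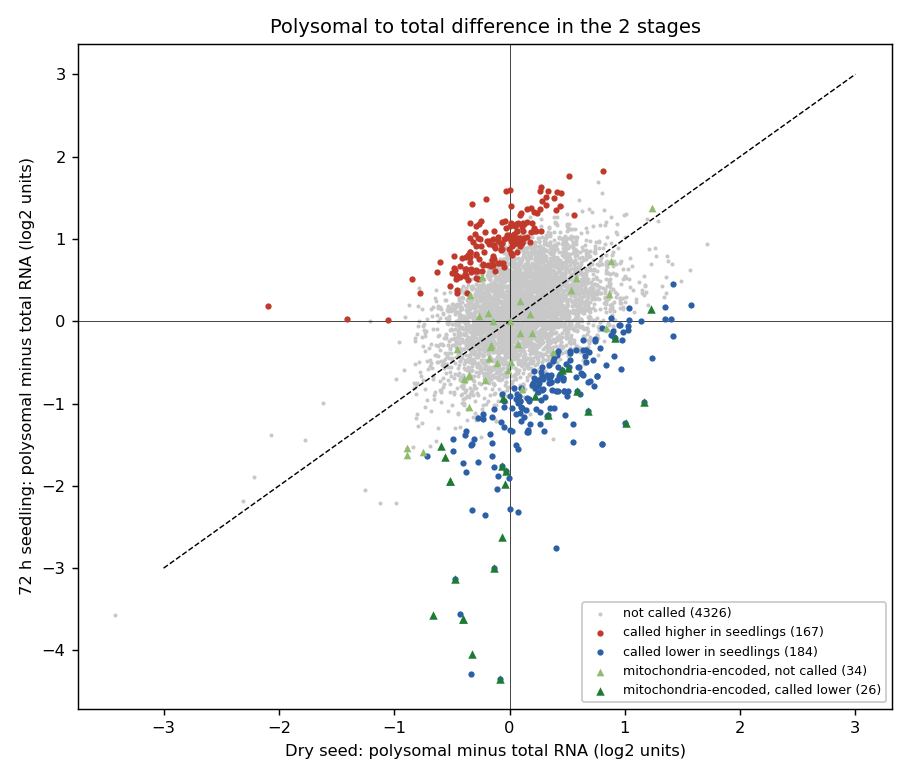
Polysomal minus total difference (log2 units) in seedlings against dry seeds for the 4737 rows with all group means of 5 or more. The dashed line marks equal differences, the 167 red points above it were called higher and the blue points and dark triangles below it called lower, and the mitochondria-encoded rows (triangles) reach -4.34 in seedlings while they stay above -1 in dry seeds.

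The largest higher shift among nuclear genes belonged to AT3G07850, a protein-coding locus with no name in RefSeq. Its array values were 10.08, 9.78 and 9.65 in dry total RNA, 7.43, 8.19 and 7.62 in dry polysomal RNA, 9.80, 9.67 and 9.46 in seedling total RNA and 9.65, 9.80 and 10.04 in seedling polysomal RNA. Only the dry polysomal group stood apart, below the other 3 groups, and the seedling fractions overlapped. The polysomal minus total difference was -2.09 (SE 0.21) in dry seeds and 0.18 (SE 0.21) in seedlings, a shift of 2.27 (SE 0.30, adjusted p = 7.15e-05). The small nucleolar RNA AT4G39364 (shift 1.44, SE 0.30, adjusted p = 0.00660) and PSBW, a small subunit of photosystem II (shift 1.07, SE 0.22, adjusted p = 0.00493), likewise had polysomal values below total values without overlap in dry seeds and overlapping fractions in seedlings. PSBW was picked after its values were seen. The values of PSBW were 6.12, 6.23 and 6.22 in dry total against 5.02, 5.15 and 5.24 in dry polysomal RNA, and 10.99, 10.98 and 10.89 in seedling total against 10.97, 11.01 and 10.94 in seedling polysomal RNA. How fully the labelling covers a small nucleolar RNA was not tested.

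Most of the other leading higher genes were level between fractions in dry seeds and higher in polysomal RNA of seedlings. SBP1, a selenium-binding protein gene, had 7.28, 7.42 and 7.47 in dry total, 7.03, 7.45 and 7.07 in dry polysomal, 6.89, 6.72 and 7.03 in seedling total and 8.29, 8.25 and 8.55 in seedling polysomal RNA. Fractions overlapped in dry seeds, whereas all seedling polysomal values lay above every other value, a shift of 1.69 or 3.23-fold (SE 0.28, adjusted p = 0.000801). AT-IE, which encodes an enzyme of histidine synthesis, followed the same pattern at a lower level (shift 1.60, SE 0.39, adjusted p = 0.0158). All its groups but seedling polysomal RNA had means of 5.13 to 5.33, close to the floor. CAD1, named for cinnamyl alcohol dehydrogenase, had dry seed means near 10 in both fractions. Its seedling total values of 5.51, 4.88 and 5.15 lay far below these, and its seedling polysomal values were 6.58, 6.91 and 6.84 (shift 1.59, SE 0.27, adjusted p = 0.00112). One of its seedling total values was below 5, so this group stood close to the floor. AT1G16700 on the list of nuclear respiratory chain genes and carriers had 6.29, 6.81 and 6.78 in seedling total and 7.78, 7.98 and 8.40 in seedling polysomal RNA, with overlapping fractions in dry seeds (shift 1.75, SE 0.34, adjusted p = 0.00329).

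The proteasome degrades ubiquitin-tagged proteins, and 40 of the 42 measured subunit genes passed the floor. Of these 3 were called higher (7.50%, against 3.53% over all rows above the floor, and also 3 without seedling polysomal replicate 3) and 0 lower, 33 had a positive shift, and the median shift was 0.36 against 0.03 over all rows. The median ranged from 0.29 to 0.51 over the 20 refits tried. PAE1, a subunit of the core particle, had 7.07, 7.25 and 7.13 in dry total and 6.91, 6.95 and 6.79 in dry polysomal RNA, then 7.24, 7.27 and 7.28 in seedling total and 8.36, 8.39 and 8.57 in seedling polysomal RNA. Polysomal values lay below total ones in dry seeds and above them in seedlings without overlap at either stage (shift 1.44, SE 0.27, adjusted p = 0.00224). RPN10, a ubiquitin receptor of the regulatory particle, had 8.18, 8.21 and 8.33 in dry total and 8.13, 8.32 and 8.18 in dry polysomal RNA. Its seedling values were 7.24, 7.40 and 7.56 in total and 8.41, 8.41 and 8.76 in polysomal RNA, so that the total level was lower than in dry seeds and the polysomal level was not (shift 1.15, SE 0.23, adjusted p = 0.00488). The core subunit gene PAB1 was called as well (shift 1.30, SE 0.30, adjusted p = 0.0114).

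Lists of nuclear genes for plastid proteins had few calls. FBA1, a plastid aldolase of the Calvin cycle, had 6.54, 6.10 and 6.03 in dry total and 6.09, 6.45 and 6.16 in dry polysomal RNA, which overlapped. Its seedling values were 6.94, 7.09 and 6.81 in total and 8.09, 8.33 and 8.61 in polysomal RNA, with no overlap (shift 1.39, SE 0.32, adjusted p = 0.0116). It was the 1 called of 5 listed nuclear photosynthesis genes that passed the floor, of 50 measured (20%, against 3.53% over all rows). PSBW, described above as called higher, was not on this list. All 5 listed genes had positive shifts with a median of 0.57. Of the 34 nuclear-encoded plastid ribosomal proteins 26 passed the floor and all 26 shifts were positive (median 0.39, range 0.04 to 1.12), though 1 alone, AT5G65220, passed the test (3.85%, near the 3.53% over all rows). Each of these lists also had 1 call without seedling polysomal replicate 3. The median of that list was 0.24 to 0.54 over the 20 refits. AT5G65220 had 6.80, 6.50 and 6.75 in dry total and 6.09, 6.33 and 6.20 in dry polysomal RNA, and 9.23, 9.04 and 9.15 in seedling total and 9.82, 9.66 and 9.87 in seedling polysomal RNA. Its fractions changed order between the stages without overlap (shift 1.12, SE 0.23, adjusted p = 0.00534).

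A further 9 families were taken whole after called genes had been seen, so their counts describe and support nothing. The plastid isoprenoid (MEP) pathway, which makes precursors of carotenoids and gibberellins, had 4 of 7 genes above the floor and 2 called higher (median 0.43). Of the 4, 2 had positive and 2 negative shifts, from -0.35 to 1.21, so the median lay between opposite pairs. ISPF, which makes the cyclic intermediate of this pathway, had 6.32, 6.26 and 6.37 in dry total, 6.66, 6.32 and 6.28 in dry polysomal, 6.38, 6.13 and 6.27 in seedling total and 7.65, 7.44 and 7.63 in seedling polysomal RNA. Only the seedling polysomal arrays stood apart (shift 1.21, SE 0.24, adjusted p = 0.00376), and DXR, the first committed enzyme of the pathway, had the same pattern (shift 1.07, SE 0.25, adjusted p = 0.0132). Of 4 plastid chaperonin genes, whose products fold imported proteins, all passed the floor (median 0.68), and CPN60B and CPN20 were called higher (0.85, SE 0.23, for CPN20). Both calls were lost without dry polysomal replicate 1, and that of CPN60B without seedling polysomal replicate 3, which left 1. Both were also lost without seedling total replicate 2, among other arrays, and that of CPN20 with cyclic loess scaling.

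Methionine salvage recycles the methylthio group left by ethylene and polyamine synthesis. Of its 8 genes 6 passed the floor (median 0.66), 5 with a positive and 1 with a negative shift. Of the 6 genes 3 were called higher (2 without seedling polysomal replicate 3). ARD4, an acireductone dioxygenase gene, had 7.48, 7.15 and 7.48 in dry total and 7.06, 7.12 and 7.19 in dry polysomal RNA. Its seedling values were 5.89, 6.01 and 6.26 in total RNA and 7.55, 6.75 and 7.53 in polysomal RNA, with polysomal replicate 2 below the others but above every total value (shift 1.46, SE 0.32, adjusted p = 0.00805). AT5G53850, whose RefSeq synonym is DEP1, had a shift of 1.05 (SE 0.24, adjusted p = 0.0109) and the kinase gene MTK one of 0.84 (SE 0.26, adjusted p = 0.0483). The call of MTK was lost without most single arrays. RNA polymerase II subunits had 8 of 9 genes above the floor (median 0.43), 6 with positive and 2 with negative shifts (-0.73 to 1.19). NRPB4 and NRPB5 were called higher by limma with adjusted p = 0.0485 and 0.0459. Both calls were lost without most single arrays, and 0 were left without seedling polysomal replicate 3. NRPB4 also lost its call with the 12 polysomal and total arrays alone and NRPB5 with cyclic loess and quantile scaling.

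Seed oil is broken down in peroxisomes and glyoxysomes to feed the seedling, and of 26 genes of this list 23 passed the floor with a median shift of 0.37 and 18 positive. Of these 2 were called higher (8.70%, against 3.53% over all rows, and also 2 without seedling polysomal replicate 3) and 0 lower. PKT3, the thiolase that completes each round of peroxisomal fatty acid oxidation, had 10.29, 10.51 and 10.29 in dry total, 10.79, 10.91 and 10.61 in dry polysomal, 9.24, 9.15 and 9.33 in seedling total and 10.65, 10.79 and 10.99 in seedling polysomal RNA. Polysomal values exceeded total values without overlap at both stages, and the gap was wider in seedlings (shift 1.16, SE 0.25, adjusted p = 0.00833). PEX7, the receptor for the peroxisomal import signal that this thiolase carries, had 6.61, 6.97 and 6.94 in dry total and 6.91, 6.84 and 7.04 in dry polysomal RNA. In seedlings it had 5.80, 5.82 and 5.71 in total and 6.83, 6.87 and 7.49 in polysomal RNA (shift 1.20, SE 0.27, adjusted p = 0.00930), so that total RNA was lower than in dry seeds while polysomal values overlapped between stages. ICL, isocitrate lyase of the glyoxylate cycle, had a shift of 0.09 (SE 0.22, adjusted p = 0.823). Its polysomal values were 11.03, 11.09 and 11.02 in dry seeds and 11.77, 11.70 and 11.64 in seedlings.

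SNRK2.3, a protein kinase that acts in abscisic acid signalling, was the 1 called of 11 genes above the floor on the list of that hormone. This was 9.09%, against 3.53% over all rows, with 45 genes measured and a median of 0.26. The values of SNRK2.3 were 8.30, 8.24 and 8.53 in dry total and 8.42, 8.63 and 8.58 in dry polysomal RNA against 6.01, 6.14 and 6.16 in seedling total and 7.35, 7.47 and 7.61 in seedling polysomal RNA. Both fractions were lower in seedlings, total RNA more so (shift 1.19, SE 0.25, adjusted p = 0.00671). Of 12 ubiquitin and SUMO genes 9 passed the floor (median 0.14), with 1 called higher and 1 lower (11.1% each, against 3.53% and 4.43% over all rows). The higher one, UBQ14, a polyubiquitin gene, moved like SNRK2.3, with 9.34, 9.62 and 9.11 in dry total and 9.12, 9.37 and 9.28 in dry polysomal RNA against 6.98, 7.01 and 7.10 in seedling total and 7.97, 7.94 and 8.09 in seedling polysomal RNA (shift 1.07, SE 0.25, adjusted p = 0.0132). J2, a DnaJ co-chaperone gene, had a shift of 1.02 (SE 0.24, adjusted p = 0.0117). It was the 1 called of 15 heat shock and chaperone genes above the floor (6.67%, against 3.53% over all rows, of 36, median 0.14). FBP, a fructose bisphosphatase gene named after its values were seen, had a shift of 1.10 (SE 0.23, adjusted p = 0.00667). Over the 167 higher rows total RNA was lower in seedlings than in dry seeds by a median of 0.69. Polysomal RNA was higher by a median of 0.30, and total RNA was higher in seedlings for 55 of them. The shift is made of these changes, so they describe the choice of rows. Over all 4737 rows the median seedling minus dry seed difference was -0.19 in total and -0.25 in polysomal RNA, and total RNA was higher for 2042.

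PRF1, a profilin that binds actin monomers, had means of 5.67 ± 0.16 (SD, n = 3) in dry total and 5.17 ± 0.20 in dry polysomal RNA. In seedlings it had 7.69 ± 0.09 in total and 8.28 ± 0.07 in polysomal RNA. The fractions reversed their order between stages without overlap (shift 1.08, SE 0.23, adjusted p = 0.00752). The tubulin gene TUB7 was called as well (adjusted p = 0.0212), a call lost without any one of 4 arrays, among them dry polysomal replicate 1. These were 2 of 11 cytoskeleton genes above the floor, of 26 measured (18.2%, against 3.53% over all rows, list median 0.49). Without seedling polysomal replicate 3 there was 1. Histones package DNA, and 3 of 26 genes above the floor, of 37 measured, were called higher (11.5%, against 3.53% over all rows). Without seedling polysomal replicate 3 there was 1, and the list median was 0.30. Neither list was tested against the share over all rows. AT1G06760 of that list had a shift of 0.94 (SE 0.23, adjusted p = 0.0151), while H2AXA and AT5G59690 passed with adjusted p = 0.0485 and 0.0498 and lost their calls without most single arrays, AT5G59690 also with cyclic loess scaling and with the 12 polysomal and total arrays alone. Histone and ribosomal protein genes have nearly identical copies, and which copy a row measures is uncertain.

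**Figure D2:**
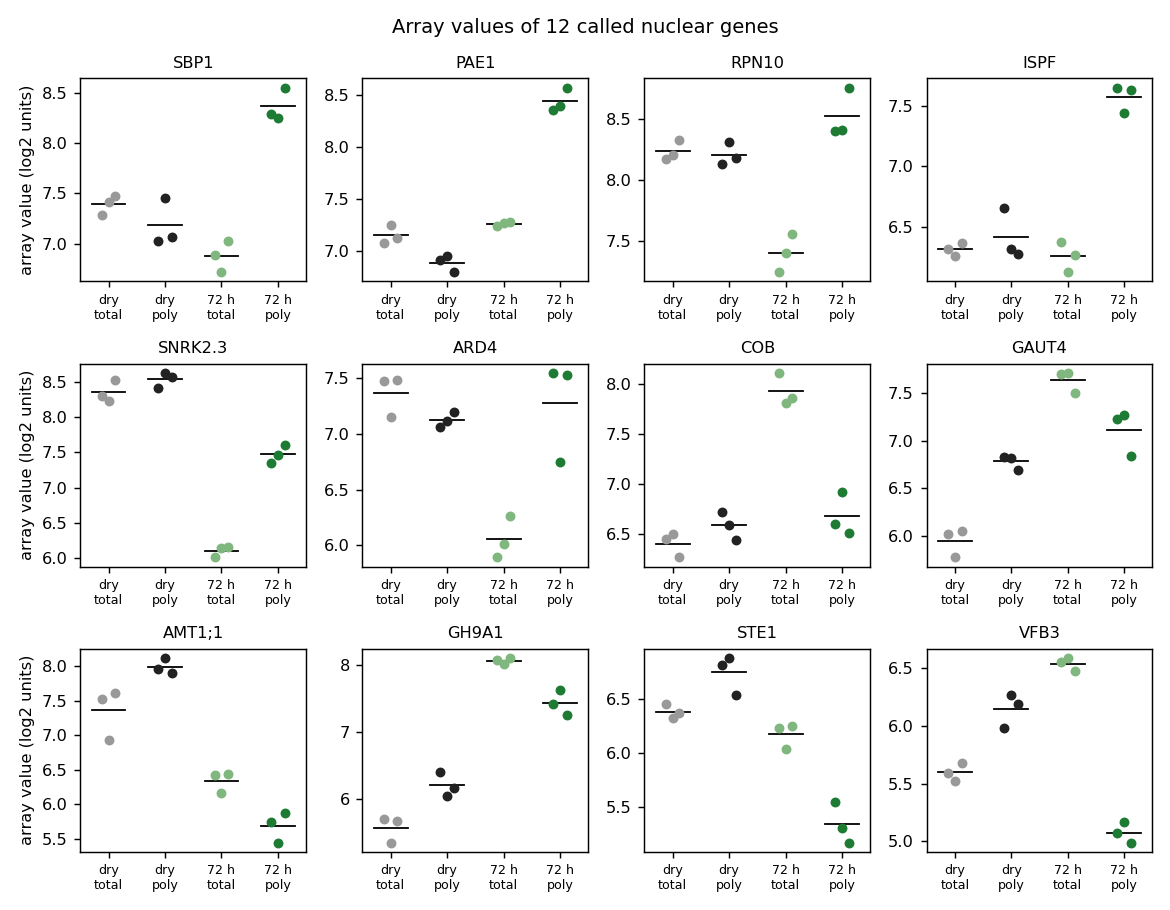
Array values (log2 units) of 12 called nuclear genes in total and polysomal RNA of dry seeds and 72 h seedlings, with points for the 3 arrays and lines for group means. SBP1, PAE1, RPN10, ISPF, SNRK2.3 and ARD4 had higher shifts and COB, GAUT4, AMT1;1, GH9A1, STE1 and VFB3 lower ones, each panel with its own axis.

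Of the 210 lower rows 153 were nuclear genes outside the organelle-related rows described further on, and their median shift was -1.11. AT2G07749, given with the mitochondrial rows, had the largest of these shifts at -2.39. The next named one was VFB3, an F-box protein gene, with 5.59, 5.52 and 5.68 in dry total, 5.99, 6.27 and 6.19 in dry polysomal, 6.55, 6.59 and 6.47 in seedling total and 5.07, 5.17 and 4.99 in seedling polysomal RNA. Polysomal RNA lay above total RNA in dry seeds and below it in seedlings without overlap, a shift of -2.01 or 4.03-fold (SE 0.24, adjusted p = 2.17e-05). Its seedling polysomal group stood close to the floor, with 1 value below 5. SYD, a chromatin remodelling ATPase, had 5.87, 5.56 and 5.82 in dry total against 7.30, 6.92 and 7.29 in dry polysomal RNA. Its seedling fractions overlapped at 5.93, 5.85 and 5.78 in total and 5.58, 6.13 and 5.32 in polysomal RNA (shift -1.59, SE 0.35, adjusted p = 0.00809). Genes named in this and the next paragraph other than VFB3 were picked after their values were seen.

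Among the lower genes picked in this way were some of the plasma membrane and cell wall, and whether such genes were frequent among lower rows was not tested. COB, a membrane-anchored protein that orients cellulose deposition, had 6.45, 6.50 and 6.26 in dry total and 6.72, 6.59 and 6.44 in dry polysomal RNA, which overlapped. Its seedling total values of 8.11, 7.81 and 7.86 all exceeded its seedling polysomal values of 6.60, 6.92 and 6.50 (shift -1.43, SE 0.24, adjusted p = 0.00112). GH9A1, a membrane endoglucanase of cellulose synthesis, had 5.70, 5.35 and 5.67 in dry total, 6.41, 6.04 and 6.17 in dry polysomal, 8.07, 8.01 and 8.10 in seedling total and 7.40, 7.61 and 7.24 in seedling polysomal RNA. Both fractions were higher in seedlings, with polysomal RNA above total RNA in dry seeds and below it in seedlings (shift -1.27, SE 0.28, adjusted p = 0.00918). AMT1;1, an ammonium transporter, had 7.53, 6.93 and 7.62 in dry total and 7.96, 8.12 and 7.91 in dry polysomal RNA and 6.43, 6.16 and 6.44 in seedling total and 5.74, 5.44 and 5.88 in seedling polysomal RNA, with the same reversal of order (shift -1.29, SE 0.28, adjusted p = 0.00872). FER, a receptor kinase that senses the cell wall, had 6.94, 7.19 and 6.97 in dry polysomal RNA against 6.20, 5.98 and 6.20 in dry total RNA. Its seedling fractions overlapped, at 6.88, 6.46 and 6.02 in total and 6.09, 5.95 and 6.04 in polysomal RNA (shift -1.33, SE 0.32, adjusted p = 0.0150). LHT1, an amino acid transporter, was level in dry seeds and had 8.51, 8.30 and 8.41 in seedling total against 6.97, 7.11 and 7.04 in seedling polysomal RNA (shift -1.20, SE 0.25, adjusted p = 0.00660). BAK1, a co-receptor of brassinosteroid and immune receptors, had a shift of -1.15 (SE 0.30, adjusted p = 0.0222) that lost its call without seedling polysomal replicate 1, dry total replicate 2, or seedling total replicate 1 or 2. PHYB, a photoreceptor, BIN2, a kinase of brassinosteroid signalling, and BIG, other genes picked in the same way, passed with adjusted p of 0.0437, 0.0364 and 0.0419, and their calls were lost with arrays centred on medians or 75th percentiles and without most single arrays, and that of PHYB also with quantile normalization.

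Polysaccharide synthases and the machinery of the secretory pathway, again taken as whole families after calls were seen, had negative median shifts. Of 25 galacturonosyltransferase genes, whose products build pectin, 5 passed the floor, all with negative shifts (median -1.05) and 2 of them called (3 without seedling polysomal replicate 3). GAUT4 had 6.02, 5.78 and 6.05 in dry total, 6.84, 6.82 and 6.70 in dry polysomal, 7.71, 7.72 and 7.50 in seedling total and 7.23, 7.27 and 6.84 in seedling polysomal RNA (shift -1.36, SE 0.25, adjusted p = 0.00224). Its fractions did not overlap at either stage and changed order, while GATL7 lost its call without any one of 5 arrays, dry polysomal replicate 1 among them. Callose synthases had 4 of 13 genes above the floor (median -0.98) and 3 called lower (GSL05, GSL10 and GSL12, shifts -1.09, -1.07 and -0.89). These 3 calls had adjusted p of 0.0349, 0.0426 and 0.0458 and were lost with cyclic loess scaling, with arrays centred on 75th percentiles, among other settings, and without most single arrays, all 3 without seedling polysomal replicate 3. Of 10 cellulose synthases 3 passed the floor (median -0.62) and CESA6, a subunit of the complex that makes primary walls, was called lower. Its values were 6.16, 5.74 and 6.42 in dry total against 6.998, 7.275 and 7.137 in dry polysomal RNA, and 8.32, 7.94 and 8.11 in seedling total against 8.01, 8.27 and 7.93 in seedling polysomal RNA (shift -1.09, SE 0.27, adjusted p = 0.0169).

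Oligosaccharyltransferase attaches N-glycans to proteins in the endoplasmic reticulum, and 6 of its 8 measured subunit genes passed the floor, all with negative shifts (median -0.94). Of them 3 were called lower (2 without seedling polysomal replicate 3). DGL1 had 6.09, 6.08 and 6.04 in dry total, 6.36, 6.46 and 6.13 in dry polysomal, 6.59, 6.68 and 6.49 in seedling total and 5.86, 6.01 and 5.53 in seedling polysomal RNA (shift -1.03, SE 0.26, adjusted p = 0.0173). AT2G01720 had a shift of -1.36 (SE 0.32, adjusted p = 0.0122), and the catalytic subunit STT3A one of -1.09 (SE 0.30, adjusted p = 0.0314) that was lost with quantile normalization and without 8 of the single arrays. Sterol synthesis had 3 of 9 genes above the floor (median -1.20) and 2 called lower (1 without seedling polysomal replicate 3). STE1, a sterol desaturase, had 6.45, 6.32 and 6.37 in dry total and 6.82, 6.88 and 6.54 in dry polysomal RNA and 6.24, 6.04 and 6.25 in seedling total and 5.54, 5.30 and 5.17 in seedling polysomal RNA (shift -1.20, SE 0.27, adjusted p = 0.00887), and CYP51G1, the sterol demethylase, had a shift of -1.25 (SE 0.34, adjusted p = 0.0269), lost without any one of 5 arrays, among them dry polysomal replicate 2. The list of folding enzymes and translocon of the endoplasmic reticulum had 2 of 15 genes above the floor, with shifts of -0.81 and -0.37. Neither was called by limma, 1 had an unadjusted p under 0.05, and 1 was called lower in 2 of the 20 refits. BIP2, its luminal chaperone, had group means from 1.64 ± 0.52 to 2.47 ± 0.47 and was under the floor in all 4 groups.

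Of 22 genes of mRNA decay and surveillance 14 passed the floor, 11 of them with a negative shift, and the median was -0.46 (-0.57 to -0.31 over the 20 refits). AT2G39260 was the 1 member called lower (7.14%, against 4.43% over all rows). It had 6.02, 5.88 and 5.79 in dry total and 7.55, 6.87 and 7.31 in dry polysomal RNA, and 5.73, 5.75 and 5.82 in seedling total and 5.97, 5.97 and 5.88 in seedling polysomal RNA. Polysomal RNA stood above total RNA at both stages, by less in seedlings (shift -1.18, SE 0.26, adjusted p = 0.00836). SUMO2, a small ubiquitin-like modifier gene and the lower one of its list, had 8.01, 7.69 and 8.01 in dry total and 7.54, 7.78 and 7.69 in dry polysomal RNA, which overlapped, and 8.43, 8.34 and 8.41 in seedling total and 7.30, 7.35 and 6.98 in seedling polysomal RNA, which did not (shift -0.95, SE 0.23, adjusted p = 0.0158).

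Mitochondria-encoded rows gave the largest lower shifts. Of 92 such rows 60 passed the floor, 26 were called lower (43.3%, against 4.43% over all rows above the floor), 0 were called higher and 34 were not called. Their median shift was -0.74, with a range of -0.84 to -0.59 over the 20 refits, in which 19 to 31 rows were called lower (19 without seedling polysomal replicate 3). In dry seeds their polysomal to total difference had a median of -0.06 and none was below -1, whereas in seedlings the median was -0.66 and 22 of the 60 were below -1. The list median on the arrays was 8.31, 8.15 and 8.36 in dry total RNA, 8.40, 8.41 and 8.34 in dry polysomal RNA, 8.83, 8.84 and 8.62 in seedling total RNA and 7.92, 7.96 and 7.83 in seedling polysomal RNA. Among the 26 called rows the total level was higher in seedlings for 24 (median difference 1.34) and the polysomal level lower for 22 (median difference -0.55). These changes make up the shift that chose the rows. Over all 60 rows the total level was higher for 42 (median difference 0.37) and the polysomal level lower for 42 (median difference -0.33). How fully the labelling, which starts from 3′ ends of polyadenylated RNA, covers organelle transcripts was not tested.

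Many of these rows cannot be told from copies in the nuclear genome. A stretch of chromosome 2 carries rows identical on all 18 arrays to mitochondrial rows. Of 95 rows between the first and the last of these in RefSeq gene order 60 passed the floor. Of the 60, 29 were called lower (48.3%, against 4.43% over all rows) and 1 higher. With identical rows counted once, mitochondrial rows and the stretch together held 97 rows above the floor, of which 42 were called lower and 1 higher. Among the 35 mitochondrial rows identical to no other row 11 were called lower, with a median shift of -0.58. Without organelle rows, the stretch and the rows identical to chloroplast rows, the counts over all genes were 166 higher and 153 lower.

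ATMG00940 had the largest shift of all 4737 rows and was identical to AT2G07677, a transcribed pseudogene in RefSeq. Its values were 7.44, 7.98 and 7.50 in dry total, 7.42, 7.70 and 7.56 in dry polysomal, 9.68, 9.76 and 9.50 in seedling total and 5.44, 5.26 and 5.21 in seedling polysomal RNA. In dry seeds the fractions overlapped, and in seedlings total RNA stood far above polysomal RNA, 19.1-fold beyond the dry seed difference (shift -4.26, SE 0.45, adjusted p = 5.63e-06). ATMG00950 had 6.60, 6.89 and 6.47 in dry total and 5.98, 6.44 and 6.57 in dry polysomal RNA and 10.44, 10.51 and 10.15 in seedling total and 6.16, 6.28 and 6.53 in seedling polysomal RNA (shift -3.72, SE 0.39, adjusted p = 5.00e-06). AT2G07746, a tRNA locus of the chromosome 2 stretch, had nearly the same values, with 10.49, 10.75 and 10.27 in seedling total and 6.04, 6.27 and 6.32 in seedling polysomal RNA (shift -3.96, SE 0.36, adjusted p = 1.33e-06). In both the seedling polysomal values lay within the range of the dry seed values, and the seedling total values alone stood apart, above all others.

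Further large shifts were those of AT2G07669 (-3.16), ATMG00170 (-3.22, identical to ATMG00620), AT2G07722 (-3.12), ATMG00810 (-2.90), ATMG00470 (-2.56), AT2G07721 (-2.29) and AT2G07772 (-2.14), and of AT2G07749 (-2.39), which lies outside the stretch as defined. Their adjusted p ran from 1.96e-06 for ATMG00170 to 0.00654 for AT2G07772. ATMG00570 and its chromosome 2 neighbour in value, AT2G07716, differed from these in dry seeds. ATMG00570 had 6.85, 7.06 and 7.19 in dry total against 8.18, 8.06 and 7.91 in dry polysomal RNA, so that polysomal RNA was higher by 1.01, and 8.81, 8.65 and 8.37 in seedling total against 7.45, 7.56 and 7.13 in seedling polysomal RNA (shift -2.24, SE 0.31, adjusted p = 0.000158). For AT2G07716 the shift was -2.23 (SE 0.32). Some rows named here stood close to the floor. Their lowest group means were 5.02 for AT2G07749, 5.07 for AT2G07772 and 5.13 for ATMG00470. For ATMG00810, 1 seedling polysomal array was at 4.32.

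Of 15 chloroplast-encoded rows 13 passed the floor, 1 was called lower (7.69%, against 4.43% over all rows) and 0 higher, and their median shift was 0.01. Over the 20 refits this median ran from -0.30 to 0.16, and its sign turned with cyclic loess scaling and without any one of 6 arrays. The difference from the mitochondrial rows was not tested. The called row, ATCG00160, was identical to AT3G33002, a transcribed pseudogene. It had 7.73, 7.12 and 7.64 in dry total, 8.50, 7.87 and 8.54 in dry polysomal, 10.79, 10.77 and 10.32 in seedling total and 9.37, 8.94 and 9.08 in seedling polysomal RNA, a reversal of order without overlap (shift -2.30, SE 0.34, adjusted p = 0.000287). Nuclear genes of the respiratory chain and its carriers, whose products join the mitochondria-encoded subunits, had 29 of 34 above the floor and a median of 0.21. Of these 2 were called higher (6.90%, against 3.53% over all rows, and 1 without seedling polysomal replicate 3) and 0 lower. The second called one, GAMMA CA1, a carbonic anhydrase-like subunit of complex I, had a shift of 0.81 (SE 0.24, adjusted p = 0.0430) and lost its call without most single arrays.

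**Figure D3:**
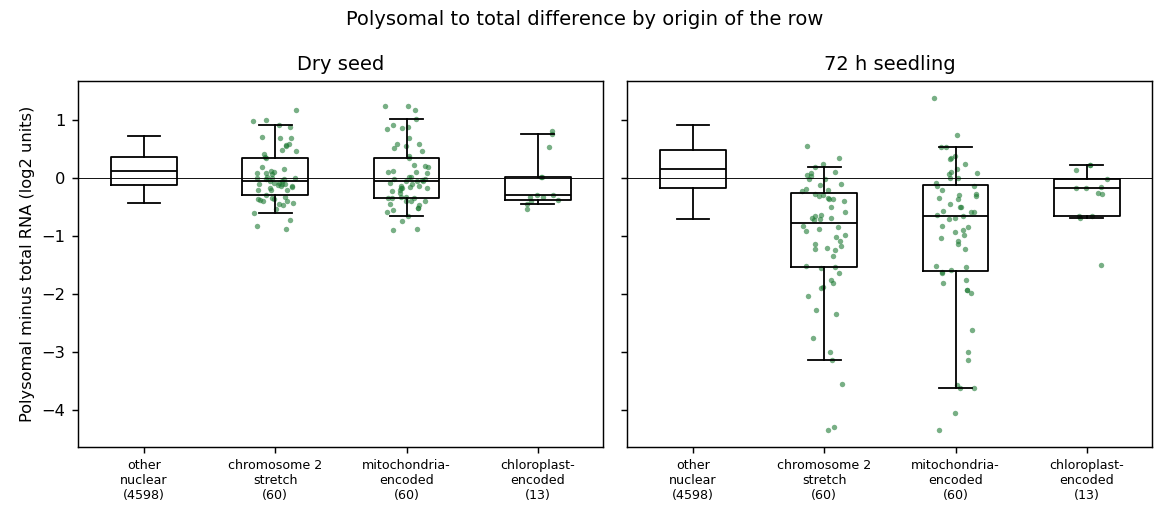
Polysomal minus total difference (log2 units) in dry seeds (left) and seedlings (right) for rows above the floor by origin, with boxes for quartiles, whiskers from the 5th to the 95th percentile and points for single rows except in the nuclear group. Mitochondria-encoded rows had medians of -0.06 in dry seeds and -0.66 in seedlings, and 4598 other nuclear rows are shown for reference.

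Genes of the translation machinery itself had list medians of 0.05 to 0.21, against 0.03 over all rows. Of 82 genes of the small ribosomal subunit 66 passed the floor, with 1 called higher and 1 lower (1.52% each, against 3.53% and 4.43% over all rows). Without seedling polysomal replicate 3, 0 were higher and 1 lower. The median shift was 0.05, which turned negative with cyclic loess scaling (-0.04) and without 3 of the single arrays. Of 127 genes of the large subunit 98 passed the floor, with a median of 0.13 and 62 positive and 36 negative shifts. Of the 98, 4 were higher (4.08%) and 5 lower (5.10%), near the shares over all rows. Without seedling polysomal replicate 3, 1 was higher and 4 lower. The largest lower shift of this list was that of AT2G40205 (shift -1.33, SE 0.40, adjusted p = 0.0425), lost with arrays centred on medians or 75th percentiles, with quantile normalization and without most single arrays. AT2G25210 had 7.25, 7.16 and 7.36 in dry total and 7.40, 7.42 and 7.46 in dry polysomal RNA and 9.47, 9.53 and 9.73 in seedling total and 8.65, 8.41 and 8.81 in seedling polysomal RNA, without overlap at either stage (shift -1.12, SE 0.27, adjusted p = 0.0131). AT3G14600 was similar in shift (-1.11, SE 0.26, adjusted p = 0.0122). In the small subunit list AT5G18380 was higher and AT3G56340 lower with adjusted p of 0.0441 and 0.0254, and both calls were lost with quantile normalization and without 5 or more single arrays, that of AT5G18380 also with cyclic loess scaling and with the 12 polysomal and total arrays alone, and that of AT3G56340 with arrays centred on 75th percentiles. Of 49 translation factor genes 39 passed the floor (median 0.21) and 1, AT5G19510, was called higher (2.56%). It had 8.89, 8.63 and 8.65 in dry total and 8.53, 8.75 and 8.15 in dry polysomal RNA and 9.35, 9.45 and 9.65 in seedling total and 10.20, 10.48 and 10.53 in seedling polysomal RNA (shift 1.17, SE 0.28, adjusted p = 0.0136). Of 25 ribosome assembly genes 18 passed the floor (median 0.14), and 1, AT3G03920, was higher (5.56%) at adjusted p = 0.0383. This call was lost without 8 of the single arrays, seedling polysomal replicate 3 among them, which left 0.

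Genes often used as references or known for translational control were followed whatever their value, and none passed the test. RPS6, a protein of the small subunit, had 7.75, 7.79 and 7.53 in dry total and 7.55, 7.59 and 7.45 in dry polysomal RNA and 9.49, 9.48 and 9.85 in seedling total and 10.02, 10.09 and 10.09 in seedling polysomal RNA (shift 0.62, SE 0.24, adjusted p = 0.104). AT1G07920 of the translation factor list had a shift of 0.66 (SE 0.22, adjusted p = 0.0590), TCTP one of 0.58 (SE 0.23, adjusted p = 0.108) and the chaperone gene HSC70-1 one of 0.71 (SE 0.23, adjusted p = 0.0587). LOS1, elongation factor 2, stood higher in polysomal RNA at both stages, with 8.97, 8.80 and 8.98 in dry total and 9.75, 9.86 and 9.40 in dry polysomal RNA and 9.11, 9.08 and 8.96 in seedling total and 10.04, 9.79 and 10.22 in seedling polysomal RNA (shift 0.21, SE 0.26, adjusted p = 0.628). The poly(A)-binding protein gene PAB4 (0.06, SE 0.25), ACT7 (-0.03, SE 0.24), GAPC1 (0.34, SE 0.27), UBQ10 (0.42, SE 0.29) and SAMDC, which has an upstream reading frame that represses its translation (-0.34, SE 0.26), had shifts within 0.5 of 0. Their adjusted p lay between 0.361 and 0.955.

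The remaining lists held few or no calls. Glycolysis, fermentation and sucrose breakdown (11 of 24 above the floor, median 0.37), antioxidant enzymes (16 of 28, median 0.36), RNA-binding proteins of stress granules and cold response (14 of 14, median 0.11), gibberellin synthesis and signalling (4 of 20, median 0.01), TOR and SnRK1 kinases (4 of 8, median -0.18) and genes with a conserved upstream reading frame (3 of 19, median -0.34) had 0 calls in either direction. The kinase list turned positive without seedling polysomal replicate 3, and the gibberellin list changed sign in 8 refits. Most genes of the other lists were under the floor in at least 1 of the 4 groups. Of seed reserve, oil body and late embryogenesis genes 2 of 27 passed it, of cell wall loosening genes 0 of 9, of cell cycle genes 2 of 15, of metallothioneins 2 of 7 and of aquaporins 1 of 16, and none of these was called. For such genes the comparison between stages cannot be read at this floor.

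**Figure D4:**
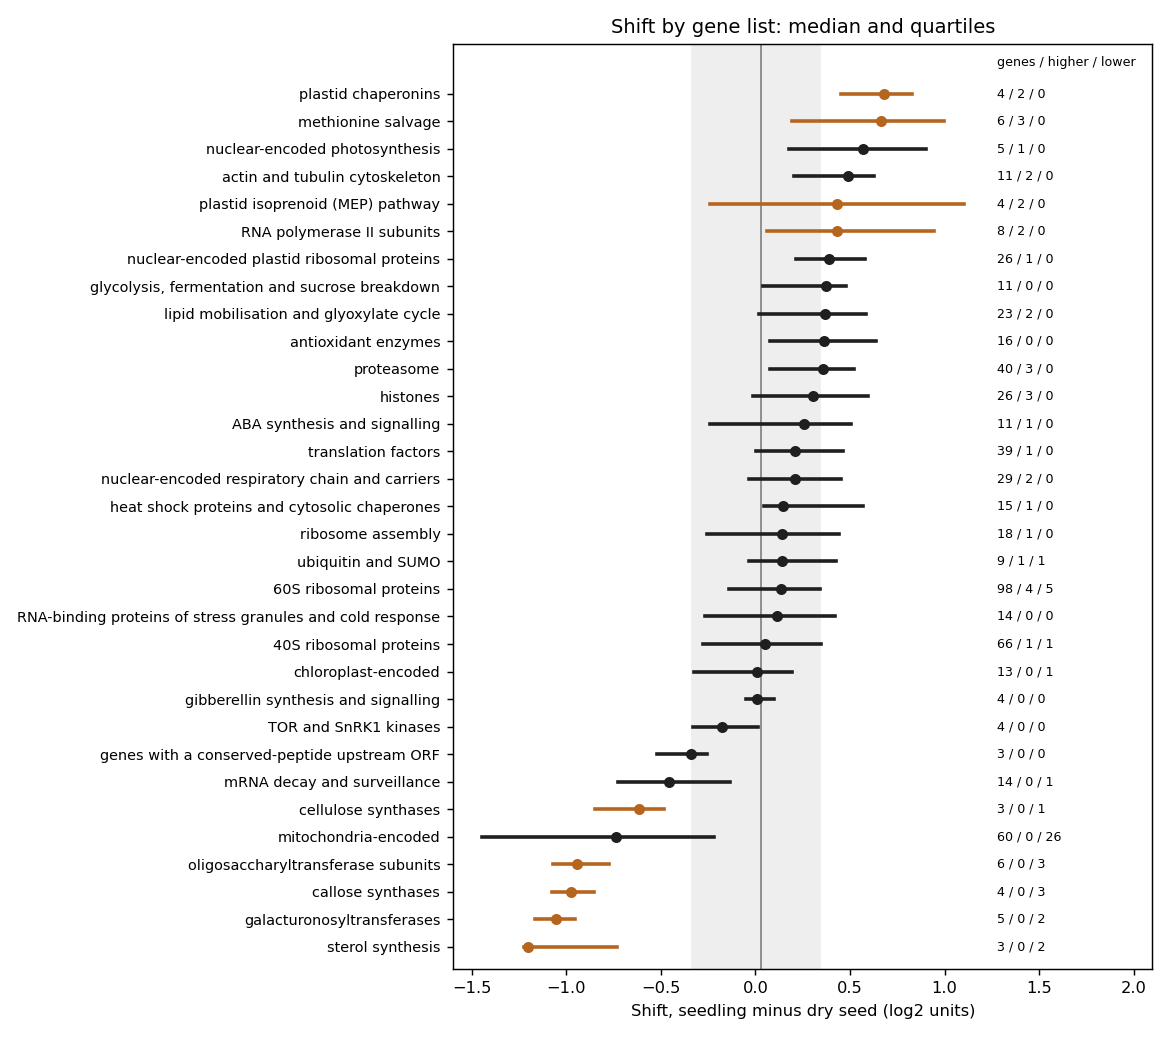
Median shift (points) and quartiles (lines), in log2 units, of each list (black) and of families taken after calls were seen (brown) with 3 or more genes above the floor, beside the median and quartiles of all 4737 rows (grey line and band). Figures at the right give genes above the floor, called higher and called lower. Mitochondria-encoded rows and the secretory and polysaccharide families lie at the lower end, plastid chaperonins and methionine salvage at the upper end.

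Monosomal RNA, which sediments with single ribosomes, entered no shift, though its arrays added to the estimate of spread in the fit. The monosomal minus total difference shares the total arrays with the shift, so its values are set beside the others without a test. For the 167 higher rows the monosomal minus total difference had a median of 0.03 in dry seeds and 0.60 in seedlings, beside polysomal medians of -0.08 and 0.96. The 153 lower nuclear rows had monosomal medians of -0.02 and -0.61, beside polysomal medians of 0.34 and -0.76. The 26 lower mitochondrial rows had monosomal medians of -1.24 and -1.57, beside polysomal medians of -0.06 and -1.70. These sets of rows were chosen on polysomal and total values, so their medians partly describe that choice. The 60 mitochondrial rows above the floor, called or not, had -1.12 and -0.69 for the monosomal and -0.06 and -0.66 for the polysomal fraction. Over all 4737 rows these medians were -0.04 and -0.06 for the monosomal and 0.11 and 0.14 for the polysomal fraction.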

How the data were processed

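Total, monosomal and polysomal RNA of dry seeds and 72 h seedlings was measured on 18 arrays, 3 per group. The deposited values are log2 intensities after RMA, per the submitters' processing notes; RMA version, platform and genome build are not given in the sources used here. The authors' values were used as deposited, 1 row per locus. Names came from RefSeq (TAIR10.1), which held 27241 of 27827 loci. Groups came from the labels. limma 3.58.1 in R 4.3.3 fitted 6 group means with 12 residual degrees of freedom, and p for the shift was adjusted over all rows (Benjamini-Hochberg, threshold 0.05, two-sided); the fit was tested on simulated data. The labels call the replicates biological. Named were the 12 largest shifts each way among called rows that were identical to no other and had the same sign for every choice of arrays, up to 3 called members of each of 29 lists (956 of 958 loci measured), and 12 set genes. Also named were all called members of the 9 families taken after calls were seen, and further genes picked after their values were seen. The members and lists were chosen with earlier results of these data known. Arrays give no counts or depth; their number limits precision. Alternatives were other scalings, variance settings, floors, thresholds, a replicate block and leaving out each array; the floor was kept on the deposited values. No sequence was used here.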

Additional observations from a re-analysis of the deposited data

Results flagged for a closer look

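In 28 named genes the polysomal and total arrays did not overlap at either stage and lay in opposite directions, and the difference itself was tested (limma, adjusted p under 0.05). Called or not, 210 of the 4737 rows had this arrangement (4.43%). Most named genes were chosen among called rows, so the 28 are a description. Shifts were positive, with polysomal RNA below total RNA in dry seeds and above it in seedlings, for AT5G12320 (1.53), AT5G44720 (1.45), PAE1 (1.44), AT5G51880 (1.36), AT5G65220 (1.12), PRF1 (1.08), AT1G06760 (0.94), CPN20 (0.85) and AT5G59690 (0.72). They were negative for AT2G07669 (-3.16), ATMG00570 (-2.24), AT2G07716 (-2.23), VFB3 (-2.01), GAUT4 (-1.36), AT2G01720 (-1.36), AMT1;1 (-1.29), GH9A1 (-1.27), CYP51G1 (-1.25), STE1 (-1.20), GATL7 (-1.17), BAK1 (-1.15), AT2G25210 (-1.12), AT3G14600 (-1.11), GSL05 (-1.09), STT3A (-1.09), DGL1 (-1.03), PHYB (-0.96) and BIN2 (-0.86).

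Monosomal values entered no shift and only added to the estimate of spread. Among the genes named for the size of their shift, 4 stood apart in monosomal RNA of a stage. All 3 of their monosomal arrays of that stage lay above every polysomal and total array of it. In seedlings these were AT3G07850 with a monosomal mean of 11.02 ± 0.19 (n = 3), AT5G12320 with 7.11 ± 0.18 and AT4G39364 with 9.12 ± 0.06, and in dry seeds ARD4 with 8.47 ± 0.04. How many of all rows had this arrangement was not counted.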

How the results depend on the processing

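Of 81 named genes that were called, 58 stayed called in the same direction in all 20 refits, including all 24 named for size, and 23 lost the call in at least 1. None reversed. Of 12 genes not called, 4 were called in at least 1 refit. The 24 had been chosen for large called shifts with the same sign for every choice of arrays, so their staying called is no independent check. Other named genes were picked after values or calls were seen. Over all called rows fewer were kept. Without dry polysomal replicate 1, 80 of the 167 higher and 134 of the 210 lower rows stayed called. The count of higher rows was 167, and 360 with arrays centred on 75th percentiles, 348 with a trend and robust variance prior, 287 with array weights, 264 with a floor of 4, 84 with a floor of 6, 1124 with no floor, 37 at adjusted p under 0.01 and 93 with a required shift of 1. The count of lower rows was 210, and 317 with array weights, 399 with a floor of 4, 88 with a floor of 6, 1380 with no floor and 70 at adjusted p under 0.01. Fewer or more rows were counted under other floors and thresholds by construction; for the other settings the cause was not tested. Leaving out 1 array gave 81 to 129 higher and 134 to 204 lower rows; counts more than 1.5 times under the main one came, for higher rows, without dry polysomal replicates 1 and 3 (81, 91), dry total replicate 3 (111), seedling polysomal replicates 1 and 3 (105, 101) and seedling total replicates 1 and 2 (93, 92), and for lower rows without dry polysomal replicates 1 and 3 (134 each), seedling polysomal replicate 3 (138) and seedling total replicate 1 (135).

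With a replicate block 142 rows were higher and 196 lower, and 138 and 190 of the main calls were kept. Of the named genes, CPN60B, MTK, AT5G59690 and AT5G18380 lost their calls with it. Same-numbered polysomal and total arrays correlated in their deviations from group means, over rows above the floor, at -0.01, 0.12 and 0.08 in dry seeds and 0.14, 0.14 and 0.17 in seedlings. Of these 6 values 4 were over the limit of 0.1 that a pairing had to pass in every pair, so the numbers were not taken as pairs. Signal near background limits what can be said of the 23090 rows under the floor.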
